A study of Homo sapiens with 9 samples.

Results

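The genes described here lie on the long arm of human chromosome 17 around LINC00673, a long non-coding RNA (lncRNA) gene placed between SOX9 and SLC39A11. They are all genes of the deposited table whose start lies from 66 to 73 Mb of chromosome 17 (build GRCh37.p13, per the submitters' processing notes), which gave 55 of 19930 genes: 46 known genes and 9 genes predicted from the sequencing by the submitters. RNA sequencing compared 9 libraries in 3 groups of 3 libraries. X453_NC held control cells, and X453_1 and X453_2 held cells with LINC00673 knockdown. All groups were labelled MDA-MB-453, an established human breast cancer cell line, all were transfected with Lipofectamine, and the labels give a harvest at 48 h after transfection. The study used siRNA 1 and siRNA 2 against LINC00673, but the labels do not say which siRNA was used in which knockdown group, nor whether the 3 libraries of a group came from separate cultures. The P values below therefore measure the spread between these libraries, which may be technical. The row of LINC00673 itself is not analysed here, so the depth of the knockdown is not given.

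A lncRNA can act on distant genes, as a partner of proteins or small RNAs, or on the genes that lie beside its own locus. The second mode, called action in cis, is the reason for reading a neighbourhood gene by gene. SOX9 is a transcription factor of cartilage, gonad and epithelial progenitor cells, and it is known for a gene desert whose distant enhancers control it. SLC39A11 encodes ZIP11, a zinc transporter. Between the end of SOX9 and the start of SLC39A11 in the table lay 520 kb (chr17:70122562-70642084, GRCh37), called the interval below. The other genes fell into 16 on the SOX9 side, SOX9 included, and 32 on the SLC39A11 side, SLC39A11 included, with 7 predicted genes inside. RefSeq (GRCh38.p14) lists 7 genes between the 2 coding genes, of which 6 are non-coding RNAs, among them LINC00673, LINC00511 and LINC02003, and none is protein coding. The predicted genes were not matched to them, since their positions are in GRCh37 and were not converted.

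The siRNAs are shown because they are what the knockdown groups received. The strands below are those of the study's list of sequences, without the 2-base overhang where one was given, and capitals mark the seed (bases 2 to 8) of the antisense strand.
siRNA 1, sense: gguggaaucagagguuucu
siRNA 1, antisense: aGAAACCUcugauuccacc
siRNA 2, sense: agacccugucucaaauaauaa
siRNA 2, antisense: uUAUUAUUugagacagggucu

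In GENCODE release 29 (GRCh38) both siRNAs matched over their whole length transcripts that this release lists under the name LINC00511, on the minus strand of chromosome 17. The site of siRNA 1 crossed an exon junction, and in 38 of the transcripts it joined bases from position 72428281 up to position 72431128. The site of siRNA 2 lay within an exon at chr17:72404374-72404394, in 33 transcripts, and 1 transcript of AC093525.9 on chromosome 16 held the same sequence (chr16:2576479-2576499). No protein-coding neighbour held a whole site. The longest run shared with any of the 25 known genes tested was 10 bases for siRNA 1 and 15 bases for siRNA 2. A stretch of 14 or more bases of the siRNA 2 site was found in ARSG and WIPI1, which is 8% of these genes against 2.49% of 11190 tested genes in the reference. Seed sites in the 3′ untranslated region (AGGTTTC for siRNA 1, AATAATA for siRNA 2) occurred in 3 of the 25 genes (12%) and in 6 (24%), against 13.3% and 21.3% of 11150 tested genes. MAP2K6 held 2 sites for each siRNA in the longest annotated 3′ untranslated region among the 25.

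The values are FPKM, fragments counted for a gene and scaled to its length and to the mapped fragments of the library, so that levels can be compared between genes of different length. Read from the steps between low values, the libraries held an estimated 24.0 to 27.9 M fragments. Libraries of the same group correlated at r = 0.994 to 0.996 over tested genes, and none repeated another. The cells were checked against markers of MDA-MB-453, which is known as a luminal line. KRT8, KRT18, KRT19 and EPCAM were high, from 287 to 3773 FPKM in every library, FGFR4 ranged from 17.9 to 33.1 FPKM and ERBB2 from 11.8 to 17.8 FPKM. FOXA1 was listed at 0 in 7 libraries and at most at 0.04 FPKM in the others, and GATA3 and SPDEF reached at most 0.88 and 1.24 FPKM. The label is therefore met by the keratins but not by FOXA1, in controls and knockdown groups alike. Of 14 markers of leukocytes, endothelium and fibroblasts looked for, 12 were in the table, and COL1A1 alone passed the filter described next, with 3.83 FPKM in the controls, 5.54 in X453_1 and 6.47 in X453_2. Summed over the 4 fibroblast markers, the level was 3.55 to 4.14 FPKM in the controls, 5.33 to 5.85 FPKM in X453_1 and 5.44 to 7.09 FPKM in X453_2, with no marker but COL1A1 above 0.12 FPKM. Summed over the 4 endothelial markers it was 0.55 to 0.60 FPKM in the controls, 0.90 to 1.01 FPKM in X453_1 and 0.89 to 0.95 FPKM in X453_2, mostly VWF, and over the 4 leukocyte markers it stayed at or below 0.34 FPKM. The part of these genes in the results below was not tested.

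Of the 55 genes, 30 had a mean of at least 1 FPKM and were tested, 25 known and 5 predicted. The other 25 were too low for a test, and 10 of them stayed under 0.1 FPKM. At the edge of the filter, BGI_novel_G001761 was tested with a mean of 1.02 FPKM, and BGI_novel_G001763 was left out with 0.736 FPKM. Among tested genes, 2 exceeded 100 FPKM, the ribosomal protein gene RPL38 and the nuclear import receptor KPNA2, 13 exceeded 10 FPKM and the other 17 lay from 1 to 10 FPKM. Changes are log2 fold changes of FPKM + 1 (changes of low genes come out too small on this scale), with the standard error (SE) from limma fitted over all 12884 tested genes. A gene was called changed with a fold change of at least 1.3 (0.38 on the log2 scale) and an unadjusted P of at most 0.05. These limits are the study's, applied here on the FPKM + 1 scale. The study's methods do not name the scale of its fold change. Adjusted P values are Benjamini-Hochberg values of limma over all tested genes.

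In X453_1, 7 of the 30 genes were called (23.3%), 2 higher and 5 lower. Over all tested genes 26.7% were called, 11.1% higher and 15.6% lower, so the neighbourhood lay near the background. In X453_2, 9 genes were called (30.0%), 2 higher and 7 lower, where 34.0% of all tested genes were called, 11.0% higher and 23.1% lower. All these calls also had an adjusted P of at most 0.05. The control libraries did not overlap the X453_1 libraries in 20 genes (66.7%, background 70.0%) and did not overlap the X453_2 libraries in 23 genes (76.7%, background 73.0%). Among the 25 known genes alone, 2 were called higher and 4 lower in X453_1, and 2 higher and 5 lower in X453_2. Correction for the GC content of each gene was possible for these 25 genes. It gave 4 higher and 3 lower in X453_1 and 4 higher and 4 lower in X453_2. The background moved under this correction too. Over all tested genes with a GC value, 1543 were then called higher and 1006 lower in X453_1 (22.8% called). In X453_2 it was 1362 higher and 2009 lower (30.1% called). RNA from all cells of a culture was measured, so fewer cells of a kind and less RNA per cell cannot be told apart. Both comparisons use the same control libraries, and their values are given side by side.

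**Figure D1:**
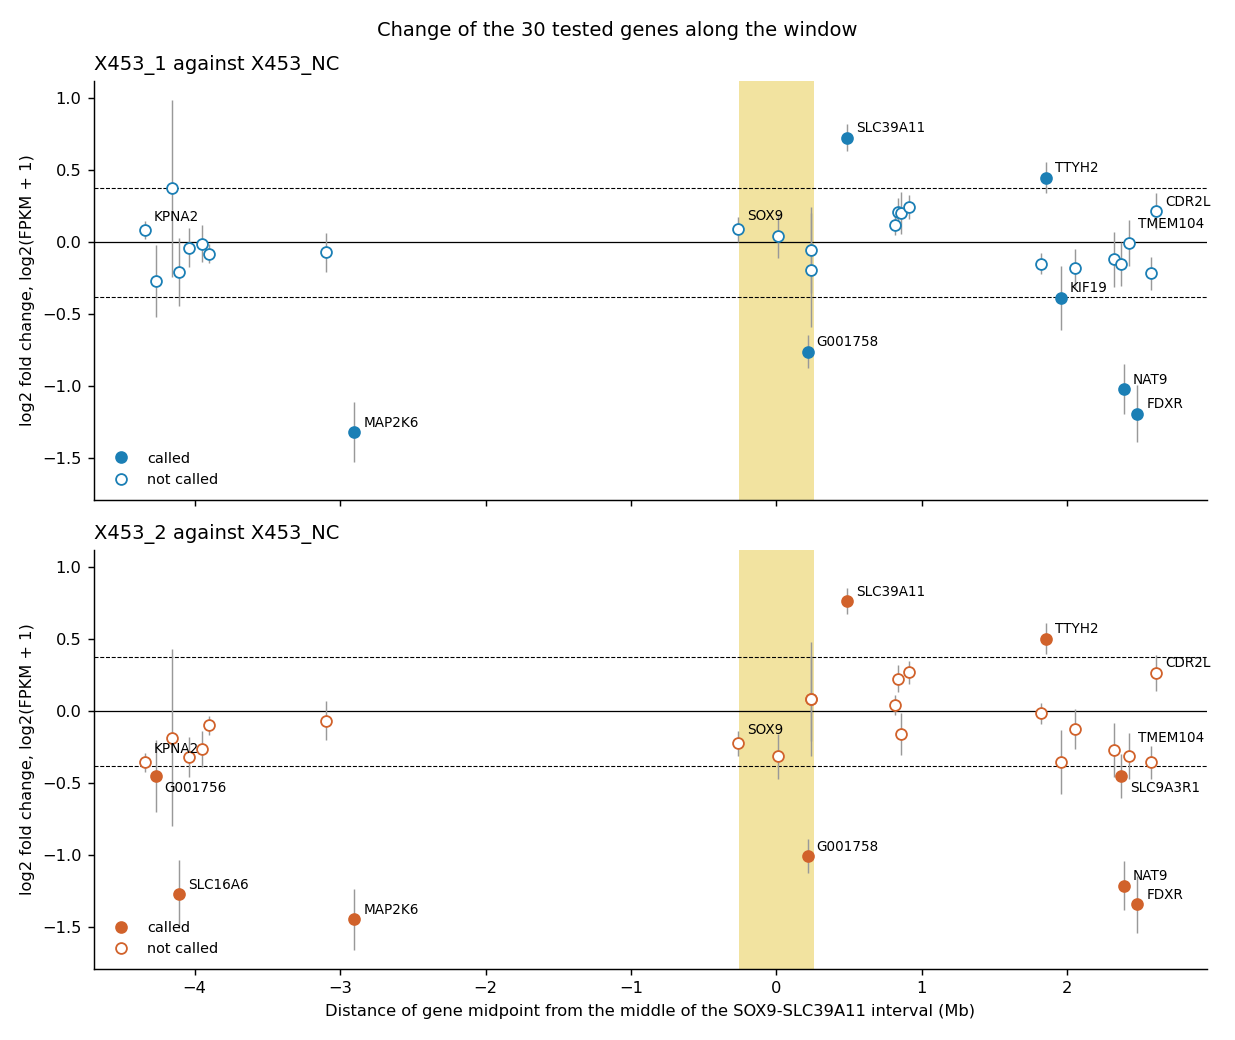
Log2 fold change on the log2(FPKM + 1) scale of the 30 tested genes (vertical axis) against the distance of the gene's midpoint from the middle of the interval in Mb (horizontal axis), for X453_1 (top) and X453_2 (bottom), each against X453_NC with n = 3 libraries per group. Bars are 95% confidence intervals from limma, filled points are called genes, dashed lines mark the 1.3-fold limit and the shaded band is the interval. SLC39A11 at the right edge of the interval was the highest point in both panels, and MAP2K6, more than 2 Mb away on the other side, the lowest.

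The coding genes on either side of the interval differed. SLC39A11 (chr17:70642085-71088853, minus strand) measured 15.52, 15.91 and 15.61 FPKM in the control libraries. It measured 26.31, 27.68 and 25.79 FPKM in X453_1. It measured 28.40, 27.71 and 25.94 FPKM in X453_2. Every knockdown library lay above every control library, and the knockdown groups overlapped each other. SLC39A11 rose 1.70-fold in X453_1 (log2 fold change 0.73, SE 0.041, adjusted P = 4.6e-07) and 1.74-fold in X453_2 (0.76, adjusted P = 1.8e-07). No other tested gene of the window rose as far in either comparison.

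SOX9 (chr17:70117161-70122561, plus strand) measured 60.01, 57.19 and 63.35 FPKM in the controls. It measured 63.04, 65.62 and 63.66 FPKM in X453_1. It measured 50.32, 51.73 and 52.07 FPKM in X453_2. The X453_1 libraries overlapped the controls at their upper end, and the X453_2 libraries lay below all others. The log2 fold change was 0.09 in X453_1 (95% confidence interval 0.00 to 0.18, adjusted P = 0.062) and -0.22 in X453_2 (-0.31 to -0.14, adjusted P = 0.00049). Neither reached the 1.3-fold limit, so SOX9 was not called in either. With libraries scaled by their median ratio the value in X453_2 was -0.12 (adjusted P = 0.025). Tested directly, X453_2 differed from X453_1 by -0.31 (adjusted P = 0.00026), also within that limit.

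Inside the interval, 4 of the 7 predicted genes were tested. BGI_novel_G001758 (chr17:70594168-70600802, minus strand) lay 41.3 kb beyond the 3′ end of SLC39A11, on the same strand. It measured 7.35, 7.96 and 7.17 FPKM in the controls, 4.30, 3.86 and 3.90 FPKM in X453_1, and 3.29, 3.20 and 3.19 FPKM in X453_2. The 3 groups did not overlap, with the controls highest and X453_2 lowest. It fell to 0.536 of the control mean in X453_1 (log2 fold change -0.76, SE 0.053, adjusted P = 1.6e-06) and to 0.431 in X453_2 (-1.01, adjusted P = 1.5e-07). From the estimated depth these values stand for about 1246 to 1298 fragments per control library and 482 to 706 per knockdown library. X453_2 lay below X453_1 by -0.25 (adjusted P = 0.0045), less than the fold limit. The transcripts that hold the whole siRNA sites also run on the minus strand. They are listed under LINC00511, which RefSeq places in this interval. Whether BGI_novel_G001758, or the minus-strand BGI_novel_G001757 described next, is part of these targeted transcripts was not tested.

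BGI_novel_G001757 (chr17:70392950-70397960, minus strand) lay near the middle of the interval. It measured 1.19, 1.33 and 1.34 FPKM in the controls, 1.31, 1.23 and 1.54 FPKM in X453_1, and 0.81, 0.85 and 0.86 FPKM in X453_2. X453_1 overlapped the controls (log2 fold change 0.04, adjusted P = 0.60), and all X453_2 libraries lay lower (-0.31, adjusted P = 0.0024). Among the alternatives run, the difference in X453_2 passed the fold limit only with a pseudocount of 0.1 FPKM (-0.56). As plain FPKM, the mean in X453_2 was 0.653 of the control mean. About 100 to 106 fragments stood behind each X453_2 value.

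The other 5 predicted genes of the interval were overlapping plus-strand models with the same end at position 70633692, so that the counting may have split reads among them and each alone is uncertain. BGI_novel_G001760 and BGI_novel_G001761 passed the filter and had log2 fold changes of -0.05 and -0.19 in X453_1 and of 0.09 each in X453_2, none called. As FPKM multiplied by length in kb and summed over the 5 models, the signal was 18.7, 22.7 and 21.3 in the controls, 21.4, 21.5 and 22.4 in X453_1, and 23.9, 24.4 and 23.3 in X453_2. The means were 20.9 ± 2.04 (SD, n = 3) in the controls, 21.7 ± 0.542 in X453_1 (exact permutation test, two-sided P = 0.7) and 23.9 ± 0.566 in X453_2 (exact two-sided P = 0.1, the smallest that 3 against 3 libraries can give). The sums were thus not below the control mean in the libraries where BGI_novel_G001758, on the other strand, fell.

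**Figure D2:**
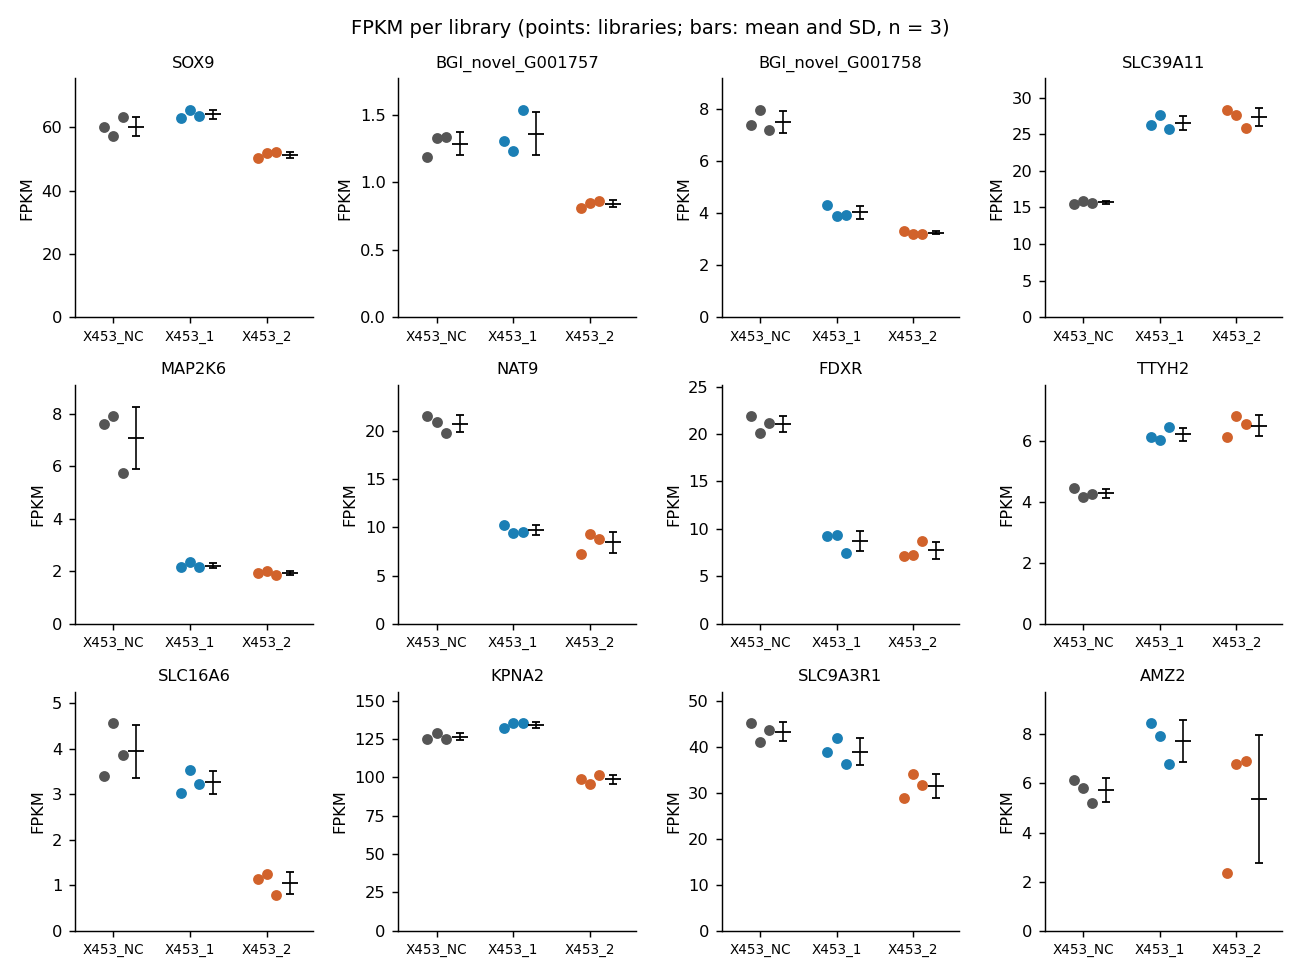
FPKM per library (vertical axis, starting at 0) of 12 genes in the control group X453_NC and the knockdown groups X453_1 and X453_2 (horizontal axis), with points for the 3 libraries of a group and a bar for mean and SD. SLC39A11 and TTYH2 stood higher, and BGI_novel_G001758, MAP2K6, NAT9 and FDXR lower, in all 6 knockdown libraries than in any control library, while SOX9, SLC16A6, KPNA2, SLC9A3R1 and BGI_novel_G001757 stood lower than every control in X453_2 only.

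Genes of kinase and receptor signalling had 6 tested members of 10, of which none was called higher and 1 in X453_1 and 2 in X453_2 were called lower. The shares over all tested genes were 11.1% and 11.0% called higher and 15.6% and 23.1% called lower. A difference of these 6 genes from them was not tested. MAP2K6 (chr17:67410838-67550002), the kinase that activates p38 MAP kinases, lay 2.57 Mb from the interval on the SOX9 side. It measured 7.63, 7.91 and 5.74 FPKM in the controls. It measured 2.16, 2.34 and 2.17 FPKM in X453_1 and 1.94, 2.03 and 1.88 FPKM in X453_2. The knockdown libraries did not reach the lowest control, although the controls were spread. MAP2K6 fell to 0.313 of the control mean in X453_1 (log2 fold change -1.32, SE 0.094, adjusted P = 1.8e-06) and to 0.275 in X453_2 (-1.45, adjusted P = 6.5e-07).

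SLC9A3R1, a scaffold that binds membrane transporters and receptors, measured 45.12, 41.10 and 43.61 FPKM in the controls, 38.74, 41.89 and 36.14 FPKM in X453_1, and 28.74, 34.01 and 31.66 FPKM in X453_2. It was called lower in X453_2 alone (log2 fold change -0.45, adjusted P = 0.0002), against -0.15 in X453_1 (adjusted P = 0.076). The call was lost when libraries were scaled by their median ratio (-0.35) and under the GC correction (-0.21). PRKAR1A, the regulatory subunit of protein kinase A, differed little at 52.0 to 57.4 FPKM, with log2 fold changes of -0.08 and -0.10. CDC42EP4, an effector of the GTPase CDC42, measured 38.02 to 40.06 FPKM in the controls and 46.0 to 50.0 FPKM in all knockdown libraries (log2 fold changes 0.24 and 0.27, adjusted P = 0.00027 and 0.00010), under the fold limit. Under the GC correction it passed that limit, with 0.60 and 0.56. The orphan receptor GPRC5C and the small GTPase RAB37 had log2 fold changes from -0.27 to -0.12, none called, and the sign of GPRC5C turned under the GC correction (0.19 and 0.18).

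Of 7 membrane transporters and channels outside the ABC and potassium channel families, 4 were tested. Beside SLC39A11, TTYH2, a membrane protein of the tweety anion channel family 1.57 Mb from the interval, rose in both groups. It measured 4.44, 4.16 and 4.25 FPKM in the controls, 6.12, 6.04 and 6.46 FPKM in X453_1, and 6.12, 6.80 and 6.56 FPKM in X453_2. TTYH2 rose 1.45-fold (log2 fold change 0.45, SE 0.049, adjusted P = 2.7e-05) and 1.52-fold (0.50, adjusted P = 9.0e-06).

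SLC16A6, a monocarboxylate transporter 3.84 Mb from the interval, separated the knockdown groups. It measured 3.40, 4.56 and 3.86 FPKM in the controls and 3.02, 3.53 and 3.22 FPKM in X453_1, which overlapped. It measured 1.13, 1.24 and 0.78 FPKM in X453_2, below every other library. SLC16A6 fell to 0.266 of the control mean in X453_2 (log2 fold change -1.27, SE 0.106, adjusted P = 3.1e-06), and its log2 fold change in X453_1 was -0.21 (adjusted P = 0.11). The gene lies within ARSG, which runs on the other strand and overlaps it over 24239 bases. ARSG, a lysosomal sulfatase, measured 6.22 to 7.29 FPKM in the controls and 4.99 to 5.62 FPKM in X453_2 (-0.32, adjusted P = 0.0011). Whether the counting used strand is not given in the sources used here, so that reads of overlapping genes on opposite strands cannot be told apart.

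The family of 5 ABCA lipid transporters had 1 tested gene, ABCA5, with 2.34 to 2.86 FPKM over all libraries and log2 fold changes of -0.07 and -0.06. ABCA6, ABCA8 and ABCA9 stayed at or below 0.09 FPKM. ABCA10 overlaps ABCA5 on the same strand over all 82748 bases of ABCA5, so its reads are uncertain. Of the inward rectifier potassium channels, KCNJ2 lay below the filter at 0.15 to 0.39 FPKM.

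Among 4 genes of nuclear transport, translation and RNA, 3 were tested. NAT9, a member of the N-acetyltransferase superfamily 2.12 Mb from the interval, measured 21.51, 20.95 and 19.78 FPKM in the controls. It measured 10.27, 9.40 and 9.48 FPKM in X453_1 and 7.21, 9.28 and 8.82 FPKM in X453_2. The controls stood clear of both knockdown groups. NAT9 fell to 0.468 of the control mean in X453_1 (log2 fold change -1.02, SE 0.077, adjusted P = 2.5e-06) and to 0.407 in X453_2 (-1.21, adjusted P = 5.7e-07).

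KPNA2, an importin alpha that carries proteins into the nucleus, was the second most abundant tested gene. It measured 124.87, 129.13 and 125.28 FPKM in the controls, 131.92, 135.39 and 135.39 FPKM in X453_1, and 98.86, 95.90 and 101.27 FPKM in X453_2. X453_1 lay slightly above the controls (log2 fold change 0.09, adjusted P = 0.025) and X453_2 below (-0.35, adjusted P = 2.8e-06), both under the fold limit. RPL38, part of the large ribosomal subunit, measured 892 to 1043 FPKM, with log2 fold changes of -0.15 and -0.01; ribosomal protein genes have near-identical copies, so that its level is uncertain.

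NAT9 starts 57 bases from TMEM104, a membrane protein gene on the other strand. TMEM104 measured 2.34, 2.52 and 2.57 FPKM in the controls, 2.53, 2.21 and 2.67 FPKM in X453_1, and 1.75, 1.65 and 2.01 FPKM in X453_2. It was not called in either group, with log2 fold changes of -0.00 and -0.31 (adjusted P = 0.96 and 0.0029), where NAT9 had -1.02 and -1.21. With a pseudocount of 0.1 FPKM TMEM104 passed the fold limit in X453_2 (-0.44). As plain FPKM, its mean there was 0.728 of the control mean. The promoter windows of both genes around the start, from RefSeq (GRCh38.p14), share 253 bases. That of NAT9 (chr17:74776296-74776595, minus strand) is printed because it serves both genes, and capitals mark the 2 matches to CCAAT, both on the opposite strand and so read as ATTGG.
NAT9 promoter window: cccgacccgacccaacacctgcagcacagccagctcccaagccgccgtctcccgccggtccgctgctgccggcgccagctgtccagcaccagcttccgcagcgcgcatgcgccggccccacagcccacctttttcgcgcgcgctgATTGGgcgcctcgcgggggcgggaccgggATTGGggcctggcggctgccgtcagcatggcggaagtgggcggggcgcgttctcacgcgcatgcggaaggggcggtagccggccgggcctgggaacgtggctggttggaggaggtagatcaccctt

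FAM104A and C17orf80, both of little known function, form the other divergent pair, 0.561 Mb and 0.586 Mb from the interval. Their deposited 5′ ends overlap by 162 bases. FAM104A measured 18.52, 18.08 and 18.50 FPKM in the controls, 21.17, 21.80 and 21.17 FPKM in X453_1, and 23.22, 21.06 and 20.76 FPKM in X453_2. C17orf80 measured 6.75, 7.66 and 7.41 FPKM in the controls, 8.16, 9.29 and 8.14 FPKM in X453_1, and 6.06, 6.34 and 6.88 FPKM in X453_2. Both lay above the controls in X453_1 (log2 fold changes 0.21 and 0.20, adjusted P = 0.0018 and 0.020). In X453_2 FAM104A lay above (0.23, adjusted P = 0.0009), while C17orf80 overlapped the controls (-0.16, adjusted P = 0.054). None of these reached the fold limit. Their promoter windows share 234 bases, and that of FAM104A (chr17:73232345-73232644, minus strand) is printed with its match to TATAAA, on the opposite strand, in capitals.
FAM104A promoter window: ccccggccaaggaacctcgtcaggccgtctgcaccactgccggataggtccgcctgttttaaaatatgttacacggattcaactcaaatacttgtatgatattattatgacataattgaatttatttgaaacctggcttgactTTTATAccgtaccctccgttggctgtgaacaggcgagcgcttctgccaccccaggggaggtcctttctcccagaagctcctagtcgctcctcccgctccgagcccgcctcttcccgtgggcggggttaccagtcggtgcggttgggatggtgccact

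RefSeq held a promoter window for 18 of the 30 tested genes. CCAAT, searched on both strands, occurred in 7 of them (38.9%), against 36.8% of the windows of 9393 tested genes. TATAAA occurred in 2 (11.1%), which are FAM104A and C17orf80 and hold the same match, against 5.36%. CCATNTT, the core of the motif of YY1, which the study placed upstream of LINC00673, occurred in 1 (5.56%), that of COG1, against 16.1%. SLC39A11, MAP2K6, TTYH2 and FDXR held none of the 3 motifs in their windows. A match describes the letters of the window and is not a binding site.

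**Figure D3:**
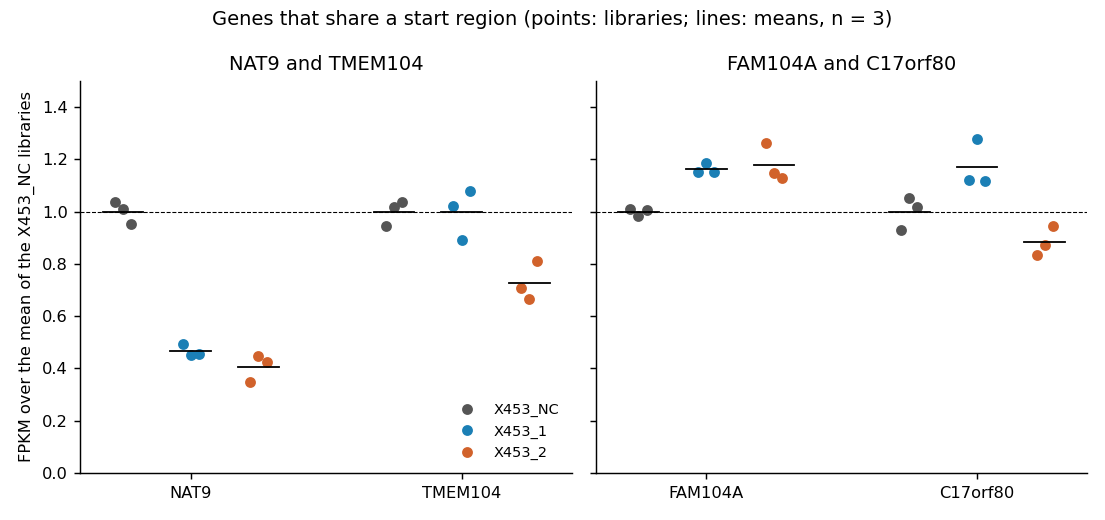
FPKM of each library divided by the mean of the 3 X453_NC libraries (vertical axis, starting at 0) for the gene pairs NAT9 and TMEM104 (left) and FAM104A and C17orf80 (right), with points for libraries and lines for group means (n = 3). NAT9 lay between 0.348 and 0.495 in all knockdown libraries while TMEM104 lay between 0.666 and 1.08. FAM104A lay above 1.1 in all of them and C17orf80 in those of X453_1 only.

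All 4 genes of Golgi, autophagy and lysosome in the window were tested, and none was called. The share called over all tested genes was 26.7% in X453_1 and 34.0% in X453_2. COG1, a subunit of the complex that tethers vesicles at the Golgi, measured 20.6 to 20.9 FPKM in the controls and 21.1 to 23.3 FPKM in the knockdown libraries (log2 fold changes 0.12 and 0.05). WIPI1, which binds early autophagosomes, and ARSG had values near 0 in X453_1 (-0.01 and -0.04) and lower values in X453_2 (-0.26 and -0.32). HID1, a protein of secretory vesicle formation, was lower in both (-0.22 and -0.35, adjusted P = 0.0041 and 0.00015), with X453_2 past the fold limit when its replicate 3 was left out (-0.39). HID1 in X453_1 turned to 0.11 under the GC correction.

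FDXR, the mitochondrial reductase that passes electrons to ferredoxin, was the one tested gene of mitochondrial redox and lipid. It lies 2.22 Mb from the interval. It measured 21.86, 20.15 and 21.20 FPKM in the controls, 9.26, 9.36 and 7.51 FPKM in X453_1, and 7.15, 7.30 and 8.77 FPKM in X453_2. All knockdown libraries stood below all controls. FDXR fell to 0.413 of the control mean in X453_1 (log2 fold change -1.19, SE 0.088, adjusted P = 2.2e-06) and to 0.367 in X453_2 (-1.34, adjusted P = 6.8e-07).

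KIF19, a kinesin of motile cilia, was the one tested gene of cilium and sensory cell, at 1.94 to 2.16 FPKM in the controls, 1.18 to 1.66 FPKM in X453_1 and 1.12 to 1.58 FPKM in X453_2. It was called lower in X453_1 (log2 fold change -0.38) and had -0.35 in X453_2, not called. The value in X453_1 lay at the fold limit and fell short of it without X453_1 replicate 2 (-0.35), X453_1 replicate 3 (-0.33), X453_NC replicate 1 (-0.37) or X453_NC replicate 3 (-0.37), and under the GC correction (-0.13). The value in X453_2 passed the limit with a pseudocount of 0.1 FPKM (-0.53) and without X453_2 replicate 2 (-0.40), X453_2 replicate 3 (-0.40) or X453_NC replicate 2 (-0.39). As plain FPKM, the mean of KIF19 in X453_2 was 0.683 of the control mean.

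The remaining tested genes were named after their values were seen. BGI_novel_G001756 measured 5.82, 7.41 and 6.50 FPKM in the controls. In X453_1 it measured 5.35, 4.87 and 5.61 FPKM, below every control but not called (log2 fold change -0.27, adjusted P = 0.059). In X453_2 it measured 5.58, 4.30 and 3.83 FPKM, which overlapped X453_1 (difference -0.18, adjusted P = 0.21). It was called lower in X453_2 (log2 fold change -0.45, adjusted P = 0.0048). The call was lost with scaling (-0.36), without X453_2 replicate 3 (-0.35) and without X453_NC replicate 2 (-0.37). CDR2L, related to an antigen of paraneoplastic cerebellar degeneration, had log2 fold changes of 0.21 and 0.27, which passed the limit under the GC correction (0.63 and 0.61). AMZ2, a metallopeptidase, measured 2.34 FPKM in X453_2 replicate 1 and 6.81 and 6.92 FPKM in the other X453_2 libraries, so that its log2 fold change in X453_2 went from -0.18 to 0.23 without that replicate.

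The number of called genes did not rise steadily towards the interval. Over all tested genes 26.7% were called in X453_1 and 34.0% in X453_2, and differences of the distance bins from these shares were not tested. Within 1 Mb, 2 of 10 tested genes were called in each comparison, SLC39A11 and BGI_novel_G001758. From 1 to 2 Mb, 2 of 4 were called in X453_1 and 1 in X453_2. From 2 to 3 Mb, 3 of 9 were called in X453_1 and 4 in X453_2, and at 3 Mb and over none of 7 in X453_1 and 2 in X453_2. Over the 30 genes the distance from the interval and the absolute log2 fold change had a Spearman rho of -0.03 in X453_1 and 0.25 in X453_2. The genes share libraries and neighbours, so these are descriptions.

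With the sign kept, rho was -0.17 in X453_1 and -0.43 in X453_2, and on the SLC39A11 side (n = 16) it was -0.54 and -0.61, genes near the interval having the higher values. On the SOX9 side (n = 10) it was 0.12 in X453_1, of the opposite sign, and -0.27 in X453_2. In X453_1 the 5 tested known genes nearest on the SLC39A11 side all lay above the controls without overlap. They were SLC39A11, COG1, FAM104A, C17orf80 and CDC42EP4, with log2 fold changes from 0.12 to 0.73. This run was chosen after its values were seen, and 35.0% of all tested genes lay above the controls without overlap in X453_1. In X453_2 the same genes had values from -0.16 to 0.76, C17orf80 being the one below 0.

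The median log2 fold change of the 30 genes was -0.06 in X453_1 and -0.24 in X453_2, beside 0.00 and -0.10 over all tested genes. It was -0.07 and -0.14 over the 758 tested genes of chromosome 17 outside the window. In the 7 Mb before the window (53 tested genes) it was 0.09 and -0.08, with 34.0% and 39.6% called. In the 7 Mb after it (122 tested genes) it was -0.21 and -0.27, with 36.9% and 47.5% called. The shares called in the window were 23.3% and 30.0%, and their difference from the adjoining stretches was not tested. The tested known genes had a median GC content of 54.3% against 50.3% over 11190 tested genes. Over all those genes GC content and log2 fold change had a Spearman rho of -0.36 in X453_1 and -0.24 in X453_2, and over the 25 genes of the window -0.06 and 0.11.

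**Figure D4:**
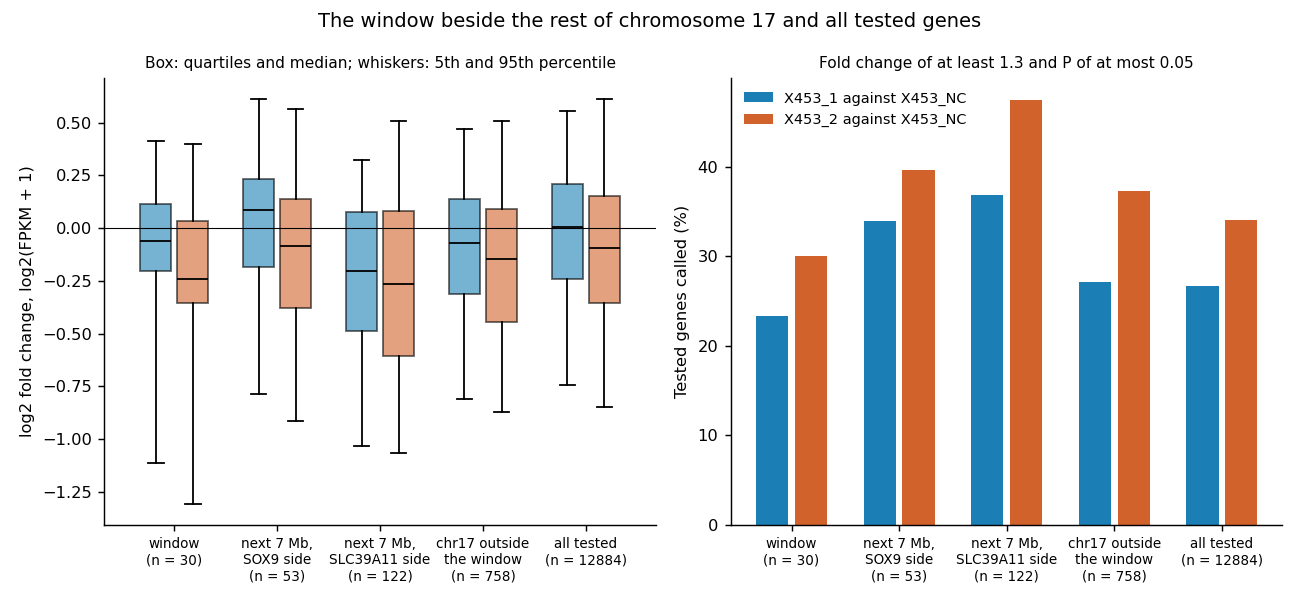
Left, log2 fold change on the log2(FPKM + 1) scale (vertical axis) of the tested genes in the window, the 7 Mb on either side, chromosome 17 outside the window and all tested genes (horizontal axis, with the number of genes), for X453_1 (blue) and X453_2 (orange) against X453_NC, as median, quartiles and 5th and 95th percentile. Right, the percentage of these genes that were called, from 23.3% and 30.0% in the window to 36.9% and 47.5% in the 7 Mb after it.

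The knockdown groups were also compared with each other. In X453_2 against X453_1, 2 of the 30 genes were called (6.67%), both lower, where 7.64% of all tested genes were called. They were KPNA2 (log2 fold change -0.44, SE 0.029, adjusted P = 8.3e-06) and SLC16A6 (-1.06, adjusted P = 8.1e-05). Scaling by the median ratio, which moved the median of all genes by 0.09 in this comparison, left SLC16A6 past the limit (-0.99) and KPNA2 short of it (-0.33). For SLC39A11, TTYH2, MAP2K6 and FDXR the groups differed by 0.04 (95% confidence interval -0.05 to 0.13), 0.06 (-0.05 to 0.16), -0.13 (-0.34 to 0.08) and -0.15 (-0.35 to 0.05), and for NAT9 by -0.19 (-0.36 to -0.02, adjusted P = 0.072). With scaling these differences were 0.14 for SLC39A11 (adjusted P = 0.025), 0.15 for TTYH2 (adjusted P = 0.035), -0.06 for MAP2K6, -0.06 for FDXR and -0.09 for NAT9, all within the fold limit.

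Relatives of the neighbours elsewhere in the genome were read from lists compiled from general knowledge. Of 9 tested genes of the p38 MAP kinase module, none was called higher, and 3 in X453_1 and 4 in X453_2 were called lower, where 15.6% and 23.1% of all tested genes were called lower. With MAP2K6, these were the p38 isoforms MAPK12 (log2 fold changes -0.86 and -1.03) and MAPK11 (-0.70 and -0.87), and in X453_2 MAPK13 (-0.42). MAPK14, the p38 alpha isoform, had 0.18 and 0.32 and was not called. The median of the module was -0.03 and -0.13, beside 0.00 and -0.10 over all tested genes.

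Of 7 tested SOX factors, 2 in X453_1 and 3 in X453_2 were called lower and none higher, beside the same 15.6% and 23.1% over all tested genes: SOX12 (-0.97 and -1.11), SOX8 (-0.53 and -0.52) and, in X453_2, SOX13 (-0.43). Of the SOX9 cartilage targets and partners 3 were tested, and COL9A3, a cartilage collagen, was called lower in both groups (-1.80 and -1.76), as was COMP, a protein of cartilage matrix (-0.65 and -0.83). Of 6 tested protein kinase A subunits PRKAR1B alone was called, lower in X453_1 (-0.46). Of 8 tested importins, KPNA3 (0.44) and KPNA7 (0.51) were called higher in X453_1, and in X453_2 KPNA7 was called higher (0.65) and KPNA5 lower (-0.49). Over all tested genes 11.1% were called higher in X453_1 and 11.0% in X453_2. The shares called lower given above stand beside the cartilage, protein kinase A and importin genes as well.

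The 25 genes below the filter included 3 with a role in immune cells, the receptors CD300A, CD300C and CD300LB, none above 0.37 FPKM. The somatostatin receptor SSTR2, 0.519 Mb from the interval and so the nearest coding gene after SLC39A11, measured 0.05 to 0.14 FPKM in the controls and 0.10 to 0.23 FPKM in the knockdown libraries. USH1G, a scaffold of inner ear hair cells, measured 0.56 to 0.72 FPKM in the controls and 0.25 to 0.45 FPKM in the knockdown libraries, which did not overlap. BGI_novel_G001764, 1.80 Mb from the interval, likewise measured 0.68 to 1.16 FPKM in the controls and 0.32 to 0.58 FPKM in the knockdown libraries. With USH1G it made 2 of the 25 genes (8%) in which every knockdown library lay below every control library, against 9.23% of the 7046 genes of the table under the filter. In 3 of the 25 (12%), FAM20A, ABCA10 and CD300C, every knockdown library lay above every control library, against 6.56% of those genes. These genes were named after their values were seen, and at such levels few fragments stand behind each value.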

How the data were processed

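Libraries of Trizol-extracted RNA were read on a BGISEQ-500 instrument, and the submitters' processing notes name Bowtie2 version 2 and the build GRCh37.p13. The deposited table gives FPKM per gene and library, which the authors computed and rounded to 2 decimals; strand use in counting is not given in the sources used here. The FPKM columns occur 2 times with equal values and the first were used. The authors' own log2 ratios, P values and q values between groups were not used. From 19930 genes (4 lines without values were left out), those with a mean of at least 1 FPKM were tested as log2(FPKM + 1) with limma version 3.58.1 in R version 4.3.3 (eBayes with a trend), all 9 libraries and the group as the only factor, after a test on simulated data. Depth was estimated from the steps of low FPKM values and covers counting only. Distances run from the nearer gene end to the interval. GC content, transcripts and siRNA matches came from GENCODE release 29 and promoters from RefSeq (GRCh38.p14). Other work used Python version 3.11.15.

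The genes and lists were chosen with earlier results of these data known. Genes were named by a rule: SOX9 and SLC39A11, tested genes within 1 Mb of the interval, tested genes of the function lists, those called most strongly with both knockdown groups, the 5 most abundant, and those called between knockdown groups. Alternatives were another pseudocount, filter, scaling and fold limit, a GC correction, a replicate block, left-out libraries and fits on the 2 groups compared. Libraries with the same suffix did not vary together (correlations from -0.24 to 0.10), so no pairing was used.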

Additional observations from a re-analysis of the deposited data

Results flagged for a closer look

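KPNA2 and SLC16A6 differed between the knockdown groups when these were tested against each other with limma, by -0.44 and -1.06 on the log2 scale. In both genes X453_2 lay lower in all 3 of its libraries than every X453_1 library. Such a separation downwards was seen in 13 of the 30 tested genes of the window and in 5229 of all 12884 tested genes. In either direction it was 46.7% and 53.7%. With scaling by the median ratio KPNA2 fell short of the fold limit (-0.33) and SLC16A6 stayed past it (-0.99).

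Among the genes below the filter, 3 had every knockdown library above every control library, which is 12% of 25 genes against 6.56% of all genes under the filter. In 2, BGI_novel_G001764 and USH1G, every knockdown library lay below every control library, which is 8% against 9.23%. Differences from these shares were not tested. ABCA10 measured at least 0.74 FPKM in the knockdown libraries and at most 0.51 FPKM in the controls, and its reads overlap those of ABCA5. FAM20A measured at least 0.09 FPKM against 0.08 FPKM in each control. CD300C measured at least 0.08 FPKM against at most 0.03 FPKM. With no filter on low values, limma gave adjusted P = 0.00030 and 0.00050 for ABCA10 in X453_1 and X453_2, 0.014 and 0.0073 for CD300C, and 0.014 and 0.19 for FAM20A, with log2 fold changes from 0.05 to 0.36.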

How the results depend on the processing

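No called gene changed direction under the alternatives run. SOX9 and SLC39A11 kept their direction and, apart from changes of the fold limit, their side of the call. With no fold limit SOX9 was called higher in X453_1 and lower in X453_2, and with a fold change of at least 2 SLC39A11 was called in neither. Of the values of the other named genes under alternatives that kept the fold limit, 630 stayed on the same side of the call, 8 lost it and 9 gained it. The number of genes called in X453_1, 7 of 30, became 4 with a mean of at least 5 FPKM, 19 with no fold limit and 3 with a fold change of at least 2. The number in X453_2, 9 of 30 (2 higher and 7 lower), became 23 and 5 under the same fold limits. With a pseudocount of 0.1 FPKM, 2 were called higher and 10 lower in X453_2, where 40.0% of all tested genes were called. With scaling by the median ratio it was 2 higher and 5 lower, where 32.8% of all tested genes were called. The number between knockdown groups, 2, became 5 with a pseudocount of 0.1 FPKM, 1 with a mean of at least 5 FPKM, 1 with scaling by the median ratio, 14 with no fold limit and 1 with a fold change of at least 2; leaving out 1 library gave 2 to 5, with 5 without X453_2 replicate 3.

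The median log2 fold change in X453_1, -0.061, was -0.0046 with no filter, 0.038 with a mean of at least 5 FPKM, 0.090 with the GC correction and -0.081 to -0.014 with 1 library left out (highest without X453_NC replicate 2). In X453_2, -0.24, it was -0.27 with a pseudocount of 0.1 FPKM, -0.041 with no filter, -0.17 with a mean of at least 5 FPKM, -0.14 with scaling, -0.15 with the GC correction, -0.22 in known genes only and -0.26 to -0.22 with 1 library left out. The rho of distance and absolute change in X453_1, -0.034, was -0.18 with the GC correction and -0.20 in known genes, and in X453_2, 0.25, it was 0.025 with no filter and 0.043 with scaling. The cause of these moves was not tested.

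With the replicate block, which pairs libraries by the suffix of their title, 7 genes were called in X453_1, 9 in X453_2 and 2 between knockdown groups, and no call changed. Scaling shifted the median of all genes by 0.09 in X453_2 against the controls, and with it PRKAR1A, ABCA5 and RPL38 changed sign at values within 0.1 of 0. In X453_1 the GC correction turned GPRC5C, SLC9A3R1, TMEM104 and HID1, none of them called there, from lower to higher. Scaling changed the calls over all tested genes in X453_2 from 1411 higher and 2974 lower to 1977 higher and 2241 lower. Genes near 1 FPKM rest on few fragments, and the depth behind the FPKM is an estimate.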
